A study of Cicer arietinum with 11 samples.

Results

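Late flowers (flowers 3 and 4) were set against early flowers (flowers 1 and 2) of chickpea (Cicer arietinum), 4 of the 11 mRNA libraries in a survey of flower development. All 4 were labelled as mature plants of genotype ICC4958, a desi line, and the protocol places mature plants in the field. Each flower stage had 1 library, so a side holds 2 stages and not replicate plants. The other 7 libraries give context: flower buds 1 to 4 and young leaves, also labelled as mature plants, a shoot apical meristem sample from plants 20 days old, and a germinating seedling, with seedlings kept in a culture room. The labels do not say how flower stages were told apart, which organs they held or how many plants were pooled, and reading the numbers as developmental order is an assumption. Expression was given as RPKM, reads scaled by transcript length and by the library's total, and was compared as log2(RPKM + 1). A transcript was counted as different where the late and early values did not overlap and their means lay at least 1 apart on that scale.

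A legume flower carries sepals, petals, stamens and a carpel, and its life after the bud includes petal expansion, pollen release, pollination, wilting of the petals and the start of ovary growth. Each of these organs has its own set of expressed genes, and the organs grow and decline at different times. In a library of whole tissue, fewer cells of a type and less RNA per cell cannot be told apart. No gene names come with the transcript IDs, of which 0 of 34760 were found in a RefSeq table of 29938 genes, so the tissues could not be checked against marker genes and the transcripts are given by ID alone.

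Depth overlapped between the sides, and the labels name no sequencing batch. Totals recovered from the values were 20366054 and 24950732 reads for flowers 3 and 4, against 24784511 and 29207580 reads for flowers 1 and 2, within a range of 14536530 to 35643139 over all libraries. At the median transcript length, 736 bases, 1 read was worth 0.0667 and 0.0545 RPKM in flowers 3 and 4, and 0.0548 and 0.0465 RPKM in flowers 1 and 2.

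Of 34760 transcripts, 1911 were higher in late flowers (5.5% of all) and 2296 were lower (6.61%), so that 12.1% differed by the rule. The median size of the difference was 1.40 among the higher transcripts and 1.33 among the lower ones. Differences of at least 2 on the log2 scale were found for 405 higher and 347 lower transcripts, and differences of at least 4 for 24 and 18. The largest were 7.95 for a higher transcript and 5.67 for a lower one. Higher transcripts outnumbered lower ones among these large differences, although not over all transcripts that differed.

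**Figure D1:**
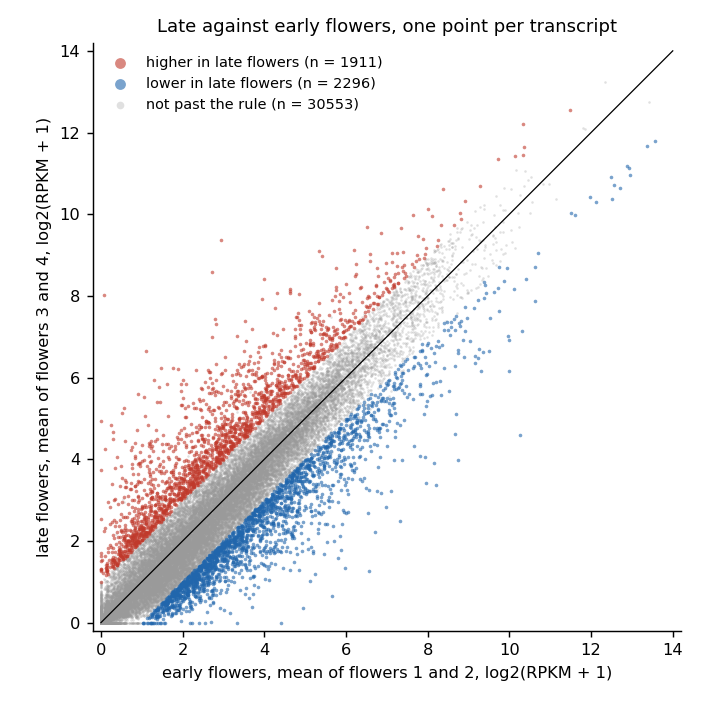
Mean log2(RPKM + 1) of flowers 3 and 4 (vertical axis) against that of flowers 1 and 2 (horizontal axis), 1 point per transcript, with the line of equal values. The 1911 transcripts higher in late flowers lie above the line and the 2296 lower ones below it.

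Which direction held more transcripts depended on scaling. With median-of-ratios size factors over the 4 flower libraries, 2177 transcripts were higher (6.26%) and 2025 lower (5.83%), and the share of higher ones among those that differed moved from 45.4% to 51.8%. The factors were 0.932 and 1.03 for flowers 3 and 4, and 1.01 and 1.06 for flowers 1 and 2. The median difference of the 34355 transcripts above 0 in flowers was -0.06 as deposited and -0.01 after scaling. All 1911 higher transcripts also met the rule after scaling, as did 2025 of the 2296 lower ones, while 266 became higher with scaling alone. The profiles below describe the 1911 (5.5%) and 2025 (5.83%) that met it both ways.

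Sides without overlap were far more frequent than differences by the rule. They did not overlap for 8804 transcripts in the direction of higher late values (25.3%) and for 11209 in the other (32.2%), most of them with means less than 1 apart. Just inside the threshold the smallest differences of non-overlapping transcripts were 1.00021 (higher) and 1.00022 (lower). Just outside it the largest were 0.99997 and 0.99976, so the boundary falls within a continuous range of values. Means at least 1 apart with overlapping sides were found for 75 transcripts with higher and 88 with lower late means.

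The 2 sides were unequally alike within themselves. Between flowers 3 and 4, 3332 transcripts lay at least 1 apart (9.59% of all), 2083 higher in flower 4 and 1249 lower. Between flowers 1 and 2 there were 686 (1.97%), 480 higher in flower 2 and 206 lower. The early pair was thus the closer one, with a Spearman correlation of 0.976 across transcripts against 0.938 for the late pair. Pairs across the sides differed most: 7023 transcripts between flowers 3 and 1, 6181 between flowers 3 and 2, 5297 between flowers 4 and 1 and 4556 between flowers 4 and 2. Flower 3 stood further from both early flowers than flower 4 did, mainly through transcripts that were lower, 4056 and 3933 against 2536 and 2406 for flower 4. These pair counts are as deposited. Over all transcripts, the median difference from flowers 1 and 2 was -0.080 and -0.128 for flower 3, and 0 and -0.0173 for flower 4. Whether the direction holds after scaling was not tested for pairs.

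**Figure D2:**
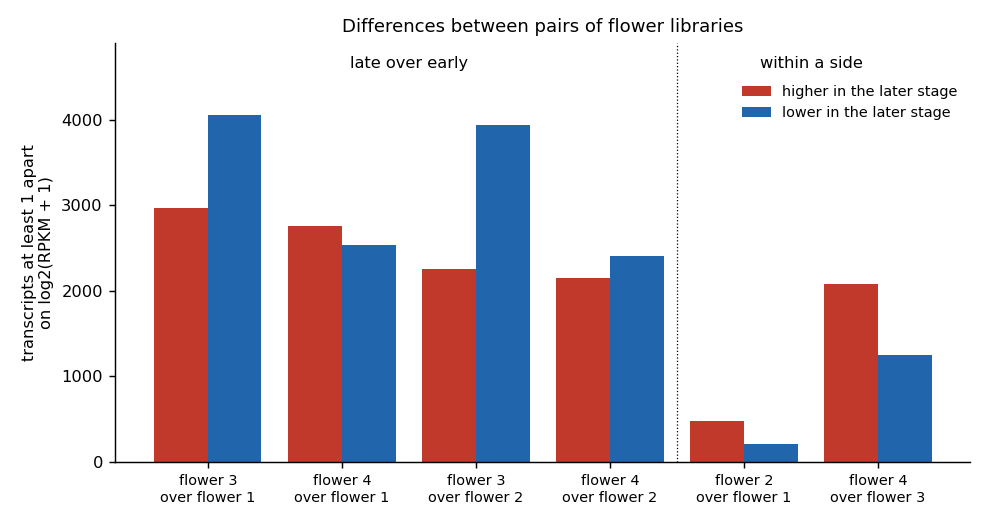
Number of transcripts at least 1 apart on log2(RPKM + 1) for the 4 pairs of a late and an early flower and the 2 pairs within a side, with bars for those higher and lower in the later stage. Flowers 2 and 1 differed in 480 and 206 transcripts, the fewest of the 6 pairs.

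Late flowers resembled the last bud stage less than early flowers did. Flowers 3 and 4 correlated with flower bud 4 at 0.843 and 0.860, against 0.930 and 0.919 for flowers 1 and 2 (Spearman, across 34760 transcripts, as a description of these libraries). Toward the vegetative tissues there was no such gap, with 0.715 to 0.775 for late flowers and 0.726 to 0.770 for early flowers.

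Tested with limma on the 4 flower libraries, 1080 of 29851 transcripts rose in late flowers (3.62%) and 1145 fell (3.84%), at a Benjamini-Hochberg adjusted p under 0.05 and a log2 difference of at least 1. After median-of-ratios scaling limma called 1156 higher and 936 lower, so the larger direction turned, with 48.5% of calls higher as deposited and 55.3% after scaling. All calls as deposited also met the rule, and they made up 56.5% of its higher and 49.9% of its lower transcripts. Calls and rule share the 4 flower libraries and the smallest difference of 1, so this full inclusion was largely set in advance. The p-values measure the spread between the stages of a side, not between plants. The number of calls rested on single libraries: 117 rose and 62 fell without flower 1, 355 and 192 without flower 2, 1839 and 1999 without flower 3, and 2169 and 3446 without flower 4. Leaving out an early flower leaves the spread to flowers 3 and 4 alone, and leaving out a late flower leaves it to the closer pair, flowers 1 and 2.

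The transcripts higher in late flowers had levels in flowers 1 and 2 near those of the buds. Their median log2(RPKM + 1) was 4.35 in both flowers 3 and 4, against 2.47 and 2.82 in flowers 1 and 2. In flower buds 1 to 4 it was 2.53, 2.69, 2.53 and 2.31, and bud 4 was the lowest of the buds. The median over all 34760 transcripts stayed between 2.50 and 2.85 in the 8 buds and flowers. Both late flowers exceeded all 4 buds for 1483 of the 1911 (77.6%, against 16.5% of all transcripts), and exceeded all 7 bud and vegetative libraries for 881 (46.1%, against 7.68%). Because late values chose these transcripts, those shares are partly set by the choice.

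Most of the higher transcripts were also expressed outside flowers, in libraries the rule did not use. Of the 1911, 24 were under 1 RPKM in all 7 bud and vegetative libraries (1.26%, against 3.82% of all transcripts), and 98 were under 1 RPKM in all 3 vegetative tissues (5.13%, against 7.19%). Among all transcripts, 1328 were under 1 RPKM in these 7 libraries, 1217 of them also in both late flowers. In the higher set, 0 were under 1 RPKM in both late flowers. The median RPKM over the 4 flower libraries was 12.8 for the set and 5.41 for all transcripts. The set's shares under 1 RPKM and its medians outside flowers are thus partly set by the choice. Their vegetative medians were 3.31 in the germinating seedling and 3.14 in shoot apical meristem, above the 2.64 and 2.92 of all transcripts, and 2.03 for young leaves, below the 2.25 of all. Among the 3 vegetative tissues the seedling held the highest value for 42.6% of the set that was above 0 there, against 31.2% of all. The set lower in late flowers had a similar share, 40.5%, so this lean was not particular to the higher set. From flower bud 1 to flower bud 4, 284 lay at least 1 lower (14.9%, against 7.79%) and 128 at least 1 higher (6.70%, against 7.49%). This contrast is not independent of the choice by low early values, since early flowers correlated more with bud 4 than with bud 1. Most were present in buds, with 157 under 1 RPKM in all 4 of them (8.22%, against 8.97%). In 327 all 4 buds lay above both early flowers (17.1%), a smaller share than the 24.3% of all transcripts. In 109 of these (5.70%, against 0.575%) the buds also lay below both late flowers. That order is possible only where late values exceed early ones, as the rule required.

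**Figure D3:**
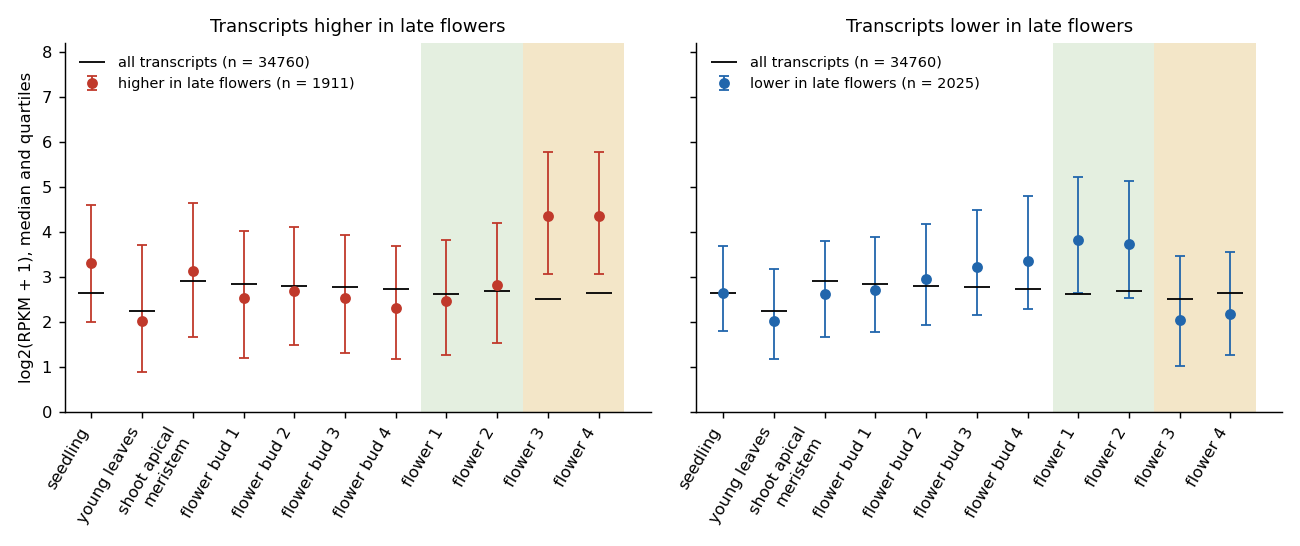
Median log2(RPKM + 1) with quartiles in each of the 11 libraries, for the 1911 transcripts higher (left) and the 2025 lower (right) in late flowers, beside the median of all transcripts (black dashes). Green shading marks flowers 1 and 2 and tan shading flowers 3 and 4; the lower set climbs from 2.72 in flower bud 1 to 3.82 in flower 1 before its low late values.

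The transcripts lower in late flowers had climbed through the buds. Their median log2(RPKM + 1) was 2.05 and 2.18 in flowers 3 and 4, against 3.82 and 3.72 in flowers 1 and 2, and it was 2.72, 2.95, 3.23 and 3.36 in flower buds 1 to 4. Each bud stage thus had a higher median than the one before, and flower 1 had the highest median of all 11 libraries. Bud 4 lay at least 1 above bud 1 for 698 of the 2025 (34.5%, against 7.49% of all transcripts) and at least 1 below it for 82 (4.05%, against 7.79%). No flower library enters this contrast, but it is not independent of the choice by high early values. Flowers 1 and 2 correlated more with bud 4 (Spearman 0.930 and 0.919) than with bud 1 (0.815 and 0.813). Among the 305 that were lower by at least 2 under both scalings, 182 had bud 4 at least 1 above bud 1 (59.7%) and 5 had it at least 1 below (1.64%).

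Some lower transcripts were at their highest in early flowers, and some lay above their late level already in every bud. In 873 (43.1%, against 16.8% of all) both early flowers exceeded all 4 buds, and in 682 (33.7%, against 8.47%) they exceeded all 7 bud and vegetative libraries. In 1040 (51.4%, against 27.8%) both late flowers lay below all 4 buds. High early and low late values chose these transcripts, which sets part of all 3 shares. The vegetative medians, 2.64 in the seedling, 2.02 in young leaves and 2.63 in shoot apical meristem, were at or below those of all transcripts, 2.64, 2.25 and 2.92. Recovered lengths differed too, with a median of 790 bases for the higher set, 570 for the lower set and 736 for all transcripts.

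The library with the highest value among the 11 followed the same lines. For the higher set it was flower 3 in 586 transcripts (30.7%, against 7.51% of all transcripts) and flower 4 in 568 (29.7%, against 6.22%). Late values chose this set, so these 2 shares are partly set by the choice. The shoot apical meristem followed with 303 (15.9%, against 22.1% of all transcripts), the seedling with 226 (11.8%, against 11.2%) and flower bud 4 with 5 (0.262%, against 5.71%). Peaks that the choice places in flowers 3 and 4 leave fewer for every other library, and the rule bars flowers 1 and 2. The shares of the other libraries are thus partly set by the choice too, and their distance from those of all transcripts is not read further. For the lower set it was flower 1 in 526 (26.0%, against 4.24%) and flower 2 in 388 (19.2%, against 5.20%), shares that the choice of high early values partly sets. Next came flower bud 4 with 261 (12.9%, against 5.71% of all transcripts), the shoot apical meristem with 198 (9.78%, against 22.1%) and flower bud 3 with 184 (9.09%, against 6.05%). Here too, peaks in flowers leave fewer for the other libraries. Flower bud 4 was the bud most correlated with early flowers, so its shares in both sets are partly set by the choice as well.

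**Figure D4:**
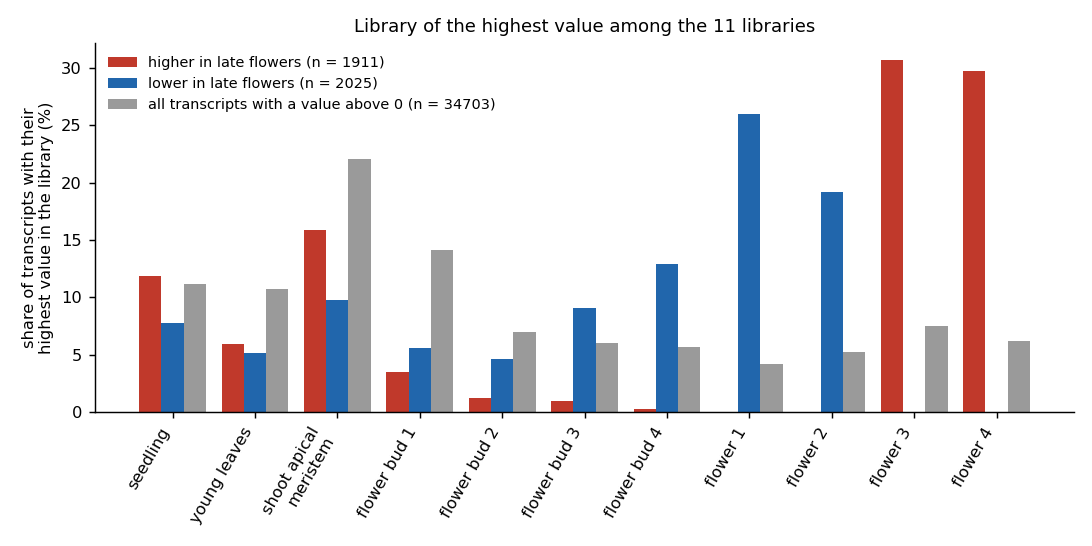
Share of transcripts (percent) whose highest RPKM among the 11 libraries fell in each library, for the higher set, the lower set and all transcripts above 0. The rule itself keeps the higher set out of flowers 1 and 2 and the lower set out of flowers 3 and 4. Outside flowers, the lower set had its largest share in flower bud 4, at 12.9%, followed by the shoot apical meristem at 9.78%. All transcripts had 22.1% in the meristem, but the choice by flower values leaves fewer peaks for the other libraries.

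Within each side the members did not all move in step. In the higher set 716 of 1911 (37.5%) had each flower stage above the one before (8.14% of all transcripts), and flower 2 exceeded flower 1 for 1479 (77.4%, against 57.4% of all transcripts). In the lower set 471 of 2025 (23.3%) had each stage below the one before (5.56% of all), orders that the rule already fixes between the sides, and flower 2 lay below flower 1 for 1224 (60.4%, against 40.7%). Flower 2 thus tended to lie on the late side of flower 1 in both sets. Flower 3 lay further from the early mean than flower 4 for 990 higher (51.8%) and 1180 lower transcripts (58.3%), shares near the 56.2% of all transcripts. Flowers 3 and 4 were at least 1 apart for 260 higher (13.6%) and 394 lower members (19.5%), against 9.59% of all transcripts.

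The lower set carried more of the early flowers' expression than the higher set carried of the late flowers'. By summed RPKM, the 10 highest transcripts of the lower set largely made this lead. Of the summed RPKM, the lower set took 7.81% and 5.10% in flowers 3 and 4, against 24.5% and 18.975% in flowers 1 and 2. The higher set took 16.0% and 15.5% in flowers 3 and 4, against 4.59% and 5.66% in flowers 1 and 2. As a share of reads, the lower set held 4.94% and 4.04% in flowers 3 and 4, against 16.6% and 13.9% in flowers 1 and 2. The same share for the higher set was 13.5% and 12.9% in flowers 3 and 4, against 3.64% and 4.53% in flowers 1 and 2. Both ways of counting gave the same direction, but the contrast between the sets was smaller by reads. The lower set's 13.9% in flower 2 was then close to the higher set's 13.5% in flower 3. A few transcripts weighed heavily: the 10 highest of the lower set made up 46.9% of its RPKM in flower 1 and 36.6% in flower 2, and the 10 highest of the higher set 21.4% in flower 3 and 20.8% in flower 4. The lower set was also a sizeable part of young leaves (20.4%) and of flower buds 2 and 3 (14.7% and 15.0%).

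Complete absence on a side was rare. In the higher set 11 transcripts had 0 reads in both early flowers (0.576%, against 1.99% of all transcripts), and in the lower set 21 had 0 reads in both late flowers (1.04%, against 2.20%). The shares of all transcripts at 0 include those with 0 reads in every flower library. The rule cannot admit these, so the lower shares of both sets are partly set by the choice. In the higher set 3 transcripts had 0 reads in all 9 other libraries (0.157%, against 0.187%), with mean late levels of 2.25 to 29.6 RPKM, and no transcript of the lower set was restricted to early flowers in this sense. At least 20 reads were present in both late flowers for 1671 of the higher transcripts (87.4%, against 61.6% of all). In both early flowers they were present for 1713 of the lower ones (84.6%, against 67.4%). Most members thus rest on more than a handful of reads on their higher side, which the choice of high values partly sets. On the lower side, 1333 of the higher set had at least 20 reads in both early flowers (69.8%, against 67.4%). For the lower set it was 1146 in both late flowers (56.6%, against 61.6%).

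The widest gap of a higher transcript was that of Ca_TC12159, at 7.04 on the log2 scale between its lowest late and highest early value. It had 139 and 483 RPKM in flowers 3 and 4, against 0.0377 and 0.0641 RPKM in flowers 1 and 2, which are 3028 and 12876 reads against 1 and 2 reads. The sides were far apart, although flower 4 held several times the level of flower 3. The late mean was 311 ± 243 RPKM and the early mean 0.0509 ± 0.0186 (SD, n = 2 each), a difference of 7.95 on log2(RPKM + 1). The 4 transcripts described here were chosen for their gap between the sides, so their differences are given without a test. Relative to library totals, late flowers held 6316 times as much, with an exact 95% interval of 2161 to 30631 that covers counting error only. It was not silent elsewhere, with 1.05, 2.90, 2.89 and 0.0315 RPKM in flower buds 1 to 4, and with 0.977 in the seedling, 0.0689 in young leaves and 3.65 in shoot apical meristem. Its level in bud 4 and both early flowers was thus lower than in buds 1 to 3.

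Ca_TC12537 was a bud transcript that was nearly lost in early flowers and present again in late ones. It had 113 and 87.5 RPKM in flowers 3 and 4, against 1.26 and 1.07 RPKM in flowers 1 and 2, a difference of 5.54 on log2(RPKM + 1). Flower buds 1 to 4 held 266, 251, 242 and 71.0 RPKM, so late flowers were above bud 4 and below buds 1 to 3. In vegetative tissues it had 2.02 RPKM in the seedling, 0.0274 in young leaves and 0 reads in the shoot apical meristem, where 3 reads would be 0.0707 RPKM. The low values thus fall in 2 adjacent stages, with 42 reads in each, between bud 4 with 2839 reads and flower 3 with 3090.

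Ca_TC23292 had the widest gap of the lower transcripts, at 4.53. It had 0.634 and 0.517 RPKM in flowers 3 and 4, 6 reads in each, against 66.3 and 36.7 RPKM in flowers 1 and 2, a difference of -4.999 on log2(RPKM + 1). Relative to library totals, early flowers held 88.3 times as much (exact 95% interval 50.4 to 171). Buds 1 to 4 held 91.2, 108, 127 and 178 RPKM, the vegetative tissues 0.396 to 1.23. The transcript was thus higher at each bud stage than at the one before, lower in flower 1 and lower again in flower 2, and in late flowers lay within the vegetative range.

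Ca_TC10436 was a transcript of early flowers. It had 4.10 and 3.18 RPKM in flowers 3 and 4, against 99.7 and 108 RPKM in flowers 1 and 2, a difference of -4.502 on log2(RPKM + 1). Flower buds 1 to 3 held 0.295 to 0.641 RPKM and flower bud 4 held 4.66, while vegetative tissues held 0.395 to 0.627. Bud 4 and both late flowers were thus at similar low levels on either side of a peak in flowers 1 and 2.

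**Figure D5:**
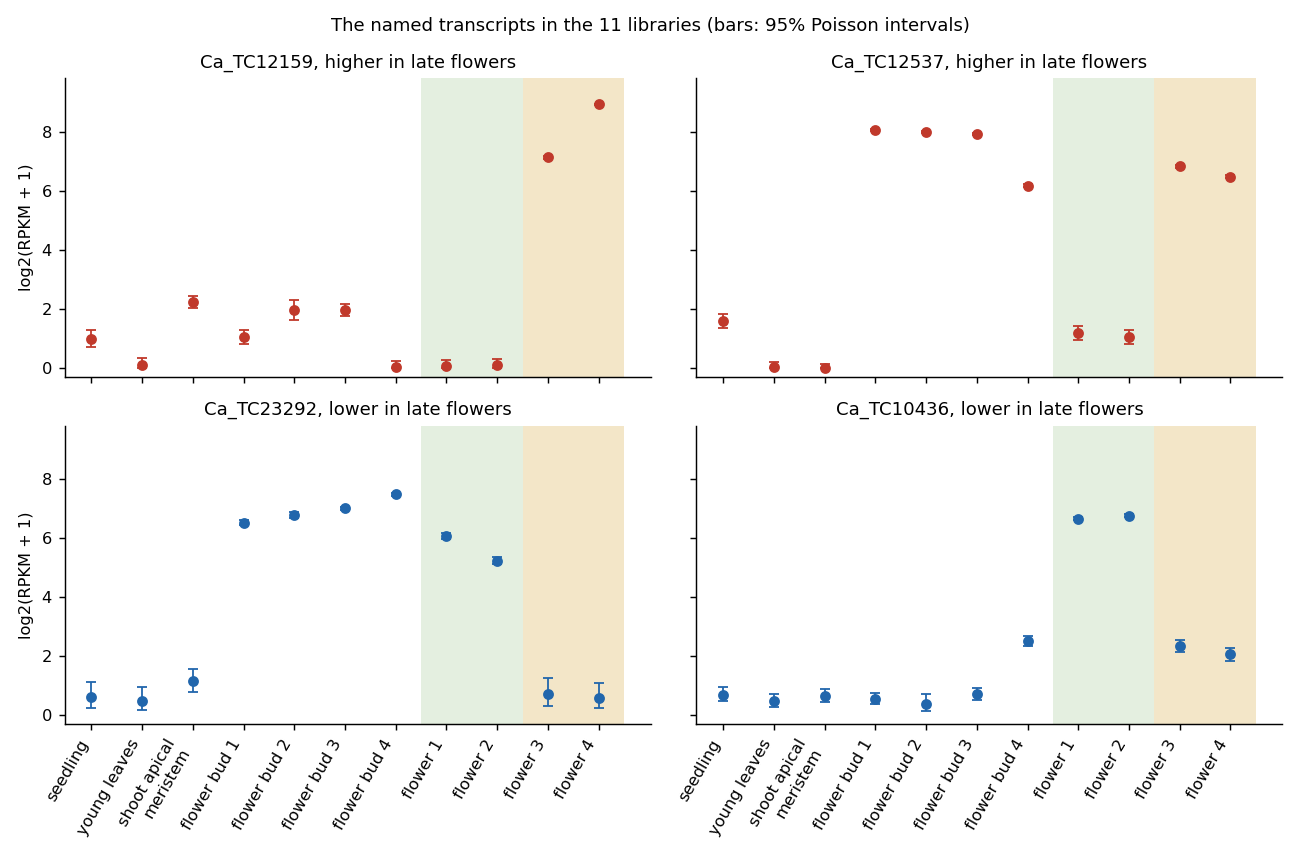
Log2(RPKM + 1) of the 4 named transcripts in each of the 11 libraries, with 95% Poisson intervals from the recovered reads, which cover counting error only. Green shading marks flowers 1 and 2 and tan shading flowers 3 and 4, and the sides lie 4.303 to 7.04 apart.

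Fewer transcripts reached 1 RPKM in each late flower than in each early one, in a design too small to pass a test. At least 1 RPKM was reached by 27504 and 28683 transcripts in flowers 3 and 4, against 28960 and 29102 in flowers 1 and 2, a difference of means of -938 that was -348 without flower 3 and -1527 without flower 4. The 100 highest transcripts took 20.4% and 17.7% of summed RPKM in flowers 3 and 4, against 26.3% and 20.8% in flowers 1 and 2, a difference of -4.49 percentage points that was -1.77 without flower 1 and -7.20 without flower 2. In both cases the sides did not overlap, and the two-sided exact permutation p was 0.333 (adjusted p = 0.333 over both measures), the smallest that 2 libraries against 2 can give. At a threshold of 5 RPKM, and for the 1000 highest transcripts, the sides overlapped (exact permutation p = 0.667 each).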

How the data were processed

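The authors deposited RPKM per transcript and library. Per the series text, reads passed NGS QC Toolkit filters before mapping to 34760 chickpea transcripts. Which aligner was used, and how it placed reads that match several transcripts, is not given in the sources used here; near-identical transcripts may therefore share reads. Each file also held 128 blank rows, which were left out. RPKM divides by the library total, so a few abundant transcripts lower all other values.

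Reads, library totals and lengths were recovered by finding the totals and the shortest length of at least 100 bases that made all libraries' reads whole. All 34703 transcripts above 0 came out whole, to within 4e-09 of the read number plus 3e-06, summing to 99.952% to 99.998% of the totals. Intervals are 95% Poisson or exact binomial.

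The rule was applied to all 34760 transcripts with a pseudocount of 1, as deposited and after median-of-ratios scaling. limma 3.58.1 in R 4.3.3 was fitted to the 4 flower libraries on log2(RPKM + 1) with an intensity trend, for transcripts of at least 1 RPKM in at least 2 of them. The recovery of reads, the rule and the limma fit were tested on simulated data. Log2 differences on this scale understate changes of low transcripts. The named transcripts are the 2 in each direction with the widest gap between the sides among those meeting the rule under both scalings. The comparison and its rule were chosen with earlier results of these data known.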

Additional observations from a re-analysis of the deposited data

Results flagged for a closer look

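Flower bud 4 lay apart from the other 3 buds for 2 of the 4 named transcripts, out of 6 measures looked at over the 4 buds. Chance gives such a flag for about 1 in 20 groups of replicates. The 4 buds are different stages with 1 library each, so that rate does not apply here. The transcripts were also chosen by their flower values, and bud 4 was the bud most correlated with flowers 1 and 2 (Spearman 0.930 and 0.919). Ca_TC12537 had 71.0 RPKM in flower bud 4, against 242 to 266 RPKM in flower buds 1 to 3. Ca_TC10436 had 4.66 RPKM in flower bud 4, against 0.295 to 0.641 RPKM in flower buds 1 to 3. In both cases bud 4 lay on the side of the early flowers that follow it in the label order.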

How the results depend on the processing

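The rule's 1911 higher and 2296 lower transcripts became 2994 and 4393 with a pseudocount of 0.1, 1015 and 906 with 5, 405 and 347 with means at least 2 apart, and 954 and 1039 with a gap of at least 1; a mean RPKM of at least 5 gave 1442 lower. Leaving out 1 flower gave 1753 to 2500 higher and 2309 to 3791 lower, the last without flower 4. limma calls ran from 117 to 2169 higher and 62 to 3446 lower when 1 flower was left out. The lower calls were 710 with a pseudocount of 5 and 726 with all 8 reproductive libraries in the fit. Quantile normalization gave 2132 higher and 2017 lower by the rule. The cause of these shifts was not tested, beyond what a smaller fit or threshold implies. No paired analysis was possible because the numbers in the labels are stages, and late and early flowers share none. Depth limits transcripts near 0, since 1 read at the median length was worth 0.0465 to 0.0667 RPKM in flowers.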
